A study of Mus musculus with 48 samples.

Results

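The 16 unirradiated primary mouse sarcomas, of 48 tumours in the series, were split by how much Ptprc messenger RNA they held. Ptprc encodes CD45, a surface phosphatase carried by nearly all white blood cells, so its level in a bulk tumour tracks how much of the RNA comes from leukocytes. The tumours were chosen by their labels (primary, 0 Gy, isotype or anti-PD-1 antibody), ranked on Ptprc counts-per-million (CPM) after scaling over these 16, and divided into the 8 highest and the 8 lowest. Because the classes were defined by a measured value, every contrast between them describes association with the Ptprc rank and not the effect of a treatment, and Ptprc itself is not a result. In bulk RNA, more leukocytes and more RNA per leukocyte cannot be told apart.

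Each tumour arose in a different p53FL/FL mouse of the 129/SvJae strain. Adenovirus carrying Cre was injected into the gastrocnemius muscle at 6 to 10 weeks of age, followed by 300 µg of the carcinogen methylcholanthrene (MCA). The promoter that drives Cre is not given in the sources used here, and cells the virus did not reach keep p53. When a tumour reached about 150 mm3 the mouse received 200 µg of the anti-PD-1 antibody muDX400 or of an isotype control, with 0 Gy in all 16 of these mice, and the tumour was taken 3 days later. The 16 irradiated primary tumours, which share no tumour with these, came from the same model and antibodies and received 20 Gy to the hind limb.

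T cells recognise antigen through the CD3 and T cell receptor complex, and cytotoxic T and natural killer (NK) cells kill with perforin and granzymes. Activated lymphocytes release interferon-gamma, which makes neighbouring cells display more MHC molecules, secrete the chemokine Cxcl9 and carry the PD-1 ligand Cd274 (PD-L1). Macrophages, which depend on the receptor Csf1r, are usually the most numerous leukocytes of a sarcoma, and mast cells, neutrophils and dendritic cells are scarcer.

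Ptprc was 103.9 to 141.5 CPM in the 8 Ptprc-high tumours, with a median of 121.1, and 68.1 to 94.5 CPM in the 8 Ptprc-low tumours, with a median of 75.5. The last tumour inside the high class was isotype replicate 5 at 103.9 CPM, and the first outside it was anti-PD-1 replicate 2 at 94.5 CPM. The highest tumour held 2.08 times the Ptprc of the lowest, against 6.84 times among the irradiated primary tumours. The step between these 2 neighbours, from 103.9 to 94.5 CPM, was part of a continuous series of levels. The high class had 3 isotype and 5 anti-PD-1 tumours and the low class 5 and 3, a division that Fisher's exact test did not separate from an even one (2-sided p = 0.619). Xist exceeded 10 CPM in 3 of 8 high and 5 of 8 low tumours. Total counts were 37.7 to 53.3 M in the high class and 39.1 to 45.0 M in the low class (2-sided exact permutation p = 0.359). Trp53 counts, 19.9 to 48.6 CPM over the 16 tumours, check nothing about the floxed deletion, since they sum the whole gene and include host cells.

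**Figure D1:**
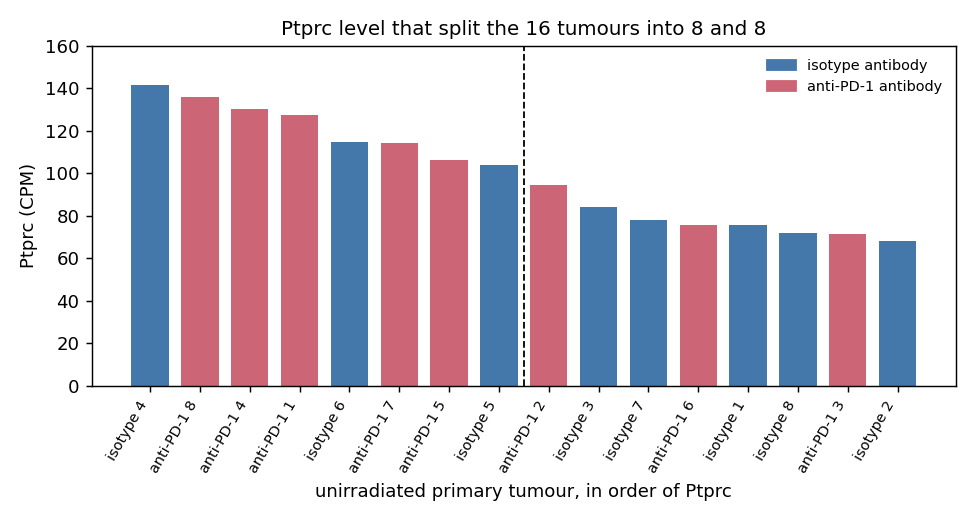
Ptprc level in CPM (vertical axis, from 0) of each of the 16 unirradiated primary tumours in rank order. Bars are blue for isotype and red for anti-PD-1 antibody, and the dashed line lies between 103.9 and 94.5 CPM.

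No gene passed the test across the genome. Of 16534 genes tested besides Ptprc with edgeR's quasi-likelihood test, 0% were higher and 0% lower in Ptprc-high tumours at an adjusted p below 0.05, the smallest adjusted p being 0.0823. At an unadjusted p below 0.05, 1325 genes (8.01%) were higher and 1095 (6.62%) lower. With tumours ranked within antibody groups these counts were 820 and 411. DESeq2 on the same classes called 261 genes higher and 161 lower, so the call count depended on the tool. The levels below are therefore given as values, and a list's count at an unadjusted p is set beside those 2 background shares. The leukocyte lists belong to the contrast that chose the classes, so nothing is read from their counts.

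Fcgr4, Clec7a, Cd48 and Lair1, surface receptors of leukocytes, were among the 5 genes with the smallest p and are named after their values were seen. Fcgr4, an activating antibody receptor of macrophages and neutrophils, was at 17.389 to 38.8 CPM with a median of 27.1 in high tumours, and at 6.64 to 17.370 with a median of 10.4 in low tumours. Its log2 fold change was 1.20 ± 0.20 (SE, adjusted p = 0.0823). Clec7a, the fungal glucan receptor dectin-1, was at 11.1 to 30.3 CPM in high and 4.54 to 10.0 CPM in low tumours, a log2 fold change of 1.32 ± 0.23. Cd48, an adhesion molecule of most leukocytes, was at 14.5 to 20.9 CPM in high and 8.32 to 13.5 CPM in low tumours, a log2 fold change of 0.80 ± 0.14. For these 3 genes all 8 high tumours lay above all 8 low tumours. Lair1, an inhibitory collagen receptor, was at 27.5 to 57.8 CPM against 19.3 to 28.5 CPM, and 7 high tumours lay above every low one. Over the genome, the classes did not overlap for 9 higher genes (0.0544%) and 9 lower genes (0.0544%). The other higher ones were Gm26542, Tespa1, Kynu, Samsn1, Arhgap15 and Ppt1.

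Genes of general leukocyte identity differed by small factors. The 20 tested genes of the pan-leukocyte list had log2 fold changes with a median of 0.32, against 0.01 over all genes tested. All 20 were higher in the high class, 11 at an unadjusted p below 0.05 (7 without isotype replicate 4), and 0 at the adjusted threshold. Cd53, a tetraspanin of leukocytes, had a median of 83.4 CPM in high and 51.1 CPM in low tumours, a log2 fold change of 0.60 ± 0.13. Laptm5, a lysosomal protein of blood cells, had medians of 258 and 226 CPM, a log2 fold change of 0.18 ± 0.14. The summed list was 1529 to 2129 CPM in the high class and 1232 to 1792 CPM in the low class, and 6 high tumours lay above every low one.

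In the cytotoxic and NK list 14 of 15 genes were tested, with a median log2 fold change of 1.38 and 14 genes higher at an unadjusted p below 0.05. Gzmb, the granzyme that triggers death of target cells, was at 5.99 to 111.99 CPM with a median of 18.3 in high tumours, and at 4.67 to 10.6 with a median of 7.48 in low tumours. Its log2 fold change was 1.99 ± 0.45 (adjusted p = 0.147), and 7 of 8 high tumours lay above every low one. The value of 111.99 CPM belonged to isotype replicate 4 alone, the next highest tumour being at 31.2 CPM, and without that tumour the log2 fold change of Gzmb was 1.15. Klrk1, the activating receptor NKG2D, was at 5.796 to 21.8 CPM against 2.72 to 6.57 CPM, a log2 fold change of 1.44 ± 0.31. Gzma, the other main granzyme, was at 1.48 to 40.0 CPM against 0.933 to 5.25 CPM, so the classes overlapped. Without isotype replicate 4 the list's median was 1.04, and 9 of its genes had an unadjusted p below 0.05. Ifng, the interferon itself, was the gene of the list that was too low to be tested.

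Over the 16 tested T cell genes the median log2 fold change was 1.02, with 15 of them higher at an unadjusted p below 0.05. Cd8a, the co-receptor of cytotoxic T cells, was at 2.35 to 22.6 CPM with a median of 9.25 in high tumours and at 1.17 to 7.55 CPM with a median of 2.65 in low tumours. The log2 fold change of Cd8a was 1.65 ± 0.42 (adjusted p = 0.163). Cd4, the co-receptor of helper T cells, which macrophages can also carry, had medians of 10.2 and 8.88 CPM and a log2 fold change of 0.43 ± 0.30, which was 0.16 without isotype replicate 4 and 0.09 when tumours were ranked by the pan-leukocyte list. The difference between these 2 fold changes was not tested. Cd3e, a signalling chain of the receptor complex, was at 1.73 to 19.6 CPM in high and 1.78 to 6.71 CPM in low tumours, and 6 high tumours lay above every low one. Cd2, an adhesion molecule, and Lat, an adaptor of receptor signalling, both had log2 fold changes of 1.04, with SEs of 0.25 and 0.26. The rank by Ptprc did not order T cell genes throughout. Anti-PD-1 replicate 3, next to last in Ptprc, had Cd8a at 7.55 CPM, while anti-PD-1 replicate 4, the third highest in Ptprc, had 2.35 CPM.

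Receptors of regulatory and exhausted T cells had a median log2 fold change of 0.83 over 11 genes, with 8 higher at an unadjusted p below 0.05. Without isotype replicate 4 that count was 3 and the median 0.58. Ctla4, an inhibitory receptor, was at 0.682 to 6.30 CPM in high and 0.622 to 2.37 CPM in low tumours, a log2 fold change of 1.06 ± 0.28. Pdcd1, the receptor PD-1 that the antibody binds, was at 1.62 to 12.5 CPM against 0.621 to 5.47 CPM, a log2 fold change of 1.11 ± 0.37. Foxp3, the factor that defines regulatory T cells, was at 0.767 to 7.89 CPM against 1.06 to 3.80 CPM, a log2 fold change of 0.83 ± 0.33. Havcr2 (Tim-3), which macrophages and dendritic cells also express, had medians of 19.3 and 15.8 CPM and a log2 fold change of 0.20 ± 0.27. Of B and plasma cell genes, 10 of 14 were tested with a median of 0.52 (0.33 without anti-PD-1 replicate 3, 0.72 without anti-PD-1 replicate 6), and Cd79b was the only one at an unadjusted p below 0.05, at 2.59 to 3.45 CPM in high and 1.22 to 2.65 CPM in low tumours. Without anti-PD-1 replicate 6 there were 4 genes at that p. Cd79a, its partner in the B cell receptor, stayed at or below 2.45 CPM in all 16 tumours. Among lymph node genes, Glycam1, Chst4 and Fcamr were at or below 0.144 CPM in every tumour. Cxcl13, a chemokine that draws B cells and is also made by T cells and stroma, was at 4.23 to 84.6 CPM with a median of 41.1 in high tumours and at 2.62 to 46.3 CPM with a median of 14.2 in low tumours, a log2 fold change of 1.15 ± 0.60 (adjusted p = 0.389), of 0.29 without isotype replicate 6, of 0.68 with the cell cycle list as a covariate and of 0.44 when tumours were ranked within antibody groups. The lymph node list's median over its 3 tested genes was 0.49, and -0.12 without anti-PD-1 replicate 7. Ccl21a, made by lymphatic vessels as well as by lymph nodes, reached 414 CPM in anti-PD-1 replicate 7 and was at 0.909 to 140 CPM in the other 15.

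**Figure D2:**
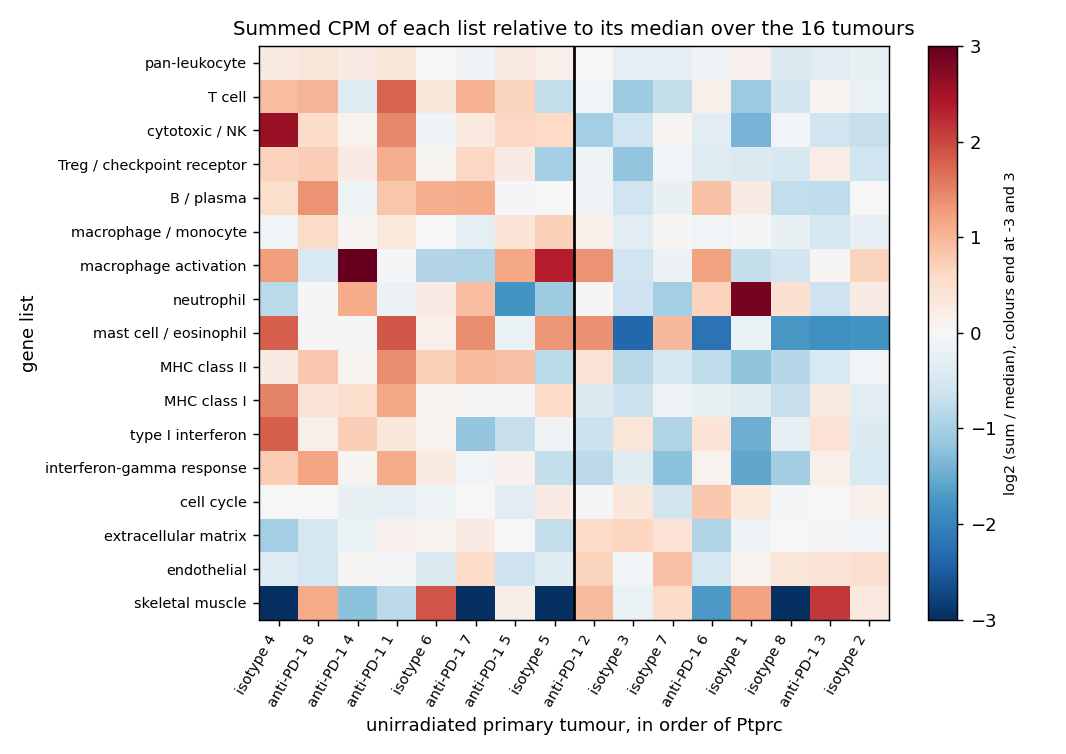
Summed CPM of 17 gene lists (rows) in the 16 tumours in order of Ptprc (columns), as log2 of the ratio to the row's median. T cell and MHC class II sums were above their medians in 6 and 7 of the 8 high tumours, and the leukocyte lists did not all peak in the same tumours.

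Macrophage genes were not alike in their values. Over 18 macrophage and monocyte genes the median log2 fold change was 0.36, with 7 higher at an unadjusted p below 0.05, and without isotype replicate 5 these were 0.22 and 4. Csf1r, the receptor on which macrophages depend, was at 245 to 607 CPM in high and 262 to 572 CPM in low tumours, a log2 fold change of 0.07 ± 0.21. The lowest Csf1r of the high class was in isotype replicate 4, the tumour with the highest Ptprc. Cd68, a lysosomal glycoprotein of macrophages, had medians of 96.5 and 87.4 CPM and a log2 fold change of 0.02 ± 0.24. Adgre1 (F4/80), a surface marker, was at 101.2 to 193 CPM against 97.6 to 170 CPM. The other 3 named genes of the list were further apart. Fcgr1, a high-affinity antibody receptor that interferon-gamma induces, had medians of 87.5 and 52.2 CPM, a log2 fold change of 0.73 ± 0.20. Ccr2, the receptor that brings monocytes into tissue, had medians of 110.8 and 57.5 CPM, a log2 fold change of 0.70 ± 0.22. C1qa, a subunit of the first complement component, had medians of 540 and 405 CPM, a log2 fold change of 0.51 ± 0.16.

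Markers of macrophage activation varied from tumour to tumour within each class, and 3 of 10 were higher at an unadjusted p below 0.05 (list median 0.82). The median was 0.55 without anti-PD-1 replicate 4, and 1 gene was below that p without isotype replicate 4. The summed activation list was highest in anti-PD-1 replicate 4 (3802 CPM) and isotype replicate 5 (1556 CPM), which were also the Ptprc-high tumours with the lowest summed T cell list (49.9 and 39.7 CPM, against 82.7 to 221 CPM in the other 6). Most of both sums was Spp1, the secreted protein osteopontin, at 3648 and 1503 CPM, a gene named after its values were seen. Isotype replicate 5 also had the highest macrophage sum of the 16, at 6193 CPM. Tumours of like Ptprc differed in which leukocyte genes were high, an observation on single tumours that was made after their values were seen. The median fold change of neutrophil genes rested on one tumour. S100a8, an abundant neutrophil calcium-binding protein, was at 92.0 CPM in anti-PD-1 replicate 4 and at most 14.6 CPM in the other 7 high tumours. Without that tumour the neutrophil list's median log2 fold change was -0.03, against 0.89 with it. Of its 15 genes 12 were tested, and 1 was higher at an unadjusted p below 0.05. Lcn2, another gene of the list, had a log2 fold change of 2.61, and of 2.02 to 3.12 with 1 tumour left out. The summed neutrophil list was 79.1 to 592 CPM in high and 134.8 to 1998 CPM in low tumours. Its highest value was in isotype replicate 1, where Mmp9, a matrix-degrading protease, made up 1945 CPM.

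Dendritic cell genes had a median log2 fold change of 0.54 over 12 of 13 genes tested. Irf8, a factor needed by type 1 dendritic cells, was at 59.97 to 99.3 CPM against 38.9 to 65.4 CPM, a log2 fold change of 0.56 ± 0.14. Itgax (CD11c), an integrin of dendritic cells and macrophages, had medians of 12.3 and 6.86 CPM, a log2 fold change of 0.66 ± 0.19. Fscn1, an actin bundler of mature dendritic cells that sarcoma cells can also make, went the other way, with medians of 364 and 515 CPM and a log2 fold change of -0.49 ± 0.14.

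Mast cell genes had a median log2 fold change of 1.44 over 11 of 12 genes tested, with 5 higher at an unadjusted p below 0.05. Cpa3, a protease of mast cell granules, was at 24.6 to 108.7 CPM in high tumours, and no high tumour was below 24.6. In low tumours it was at most 20.6 CPM in 6 and at 49.6 and 74.8 CPM in isotype replicate 7 and anti-PD-1 replicate 2. Cma1, the chymase, was at 20.8 to 95.2 CPM against 3.35 to 55.9 CPM, a log2 fold change of 1.67 ± 0.65. Fcer1a, the alpha chain of the IgE receptor, had medians of 6.19 and 0.750 CPM and a log2 fold change of 2.38 ± 0.68 (adjusted p = 0.167). Counts of Cma1 and of the related mast cell proteases are uncertain where near-identical copies share reads. Without isotype replicate 4 the list's median was 1.20 and 1 gene had an unadjusted p below 0.05, and without anti-PD-1 replicate 2 the median was 2.47. Epx, the eosinophil peroxidase, was at or below 0.0479 CPM in all 16 tumours.

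Antigen presentation genes had higher levels in most Ptprc-high tumours. For MHC class II the median log2 fold change was 0.89, and 10 of 10 genes were higher at an unadjusted p below 0.05. H2-Ab1, a chain of the class II molecule, was at 357 to 1425 CPM with a median of 880 in high tumours and at 239 to 731 CPM with a median of 370 in low tumours, a log2 fold change of 0.98 ± 0.23 (adjusted p = 0.147). H2-DMb1, which helps load peptide, was at 35.2 to 94.9 CPM against 27.7 to 57.3 CPM, and 7 high tumours lay above every low one. Isotype replicate 5 had the least H2-Ab1 of the high class (357 CPM) and anti-PD-1 replicate 2 the most of the low class (731 CPM). These are the 2 tumours on either side of the division. Ciita, the activator of class II transcription, had medians of 71.8 and 24.8 CPM, a log2 fold change of 0.89 ± 0.32.

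For 13 MHC class I genes the median was 0.91, and 10 were higher at an unadjusted p below 0.05. Without isotype replicate 4 these were 0.67 and 9. Among isotype tumours alone 11 were higher at that p, and among anti-PD-1 tumours alone 1. Psmb9, an interferon-induced subunit of the immunoproteasome, was at 36.2 to 117.6 CPM against 18.8 to 46.1 CPM, a log2 fold change of 1.22 ± 0.25 (adjusted p = 0.132). Psmb8, another such subunit, had medians of 163 and 70.9 CPM. H2-K1, a class I heavy chain whose reads can be shared with other class I genes, was at 791 to 2725 CPM against 408 to 990 CPM, a log2 fold change of 1.13 ± 0.27. Erap1, which trims peptides for class I, had a log2 fold change of 0.09 ± 0.17.

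Genes that interferon-gamma induces had a median log2 fold change of 0.94 over 18 of 19 genes tested, with 15 higher at an unadjusted p below 0.05. Cxcl9, which draws activated T cells, was at 35.7 to 378 CPM with a median of 130 in high tumours and at 15.8 to 84.0 CPM with a median of 33.3 in low tumours, a log2 fold change of 1.58 ± 0.44 (adjusted p = 0.165). Cd274, the ligand of PD-1, was at 6.85 to 26.6 CPM against 3.09 to 11.8 CPM, a log2 fold change of 1.25 ± 0.27 (adjusted p = 0.147). Gbp6, a guanylate-binding protein of a family with similar copies, had medians of 15.1 and 4.65 CPM. Type I interferon genes had a list median of 0.60 and 2 of 20 genes at an unadjusted p below 0.05. Irf7, the master factor of the type I response, was at 56.3 to 716 CPM against 49.0 to 215 CPM, the value of 716 being that of isotype replicate 4. Without that tumour the list's median was 0.11, and without anti-PD-1 replicate 7 there were 6 genes at that p. Among isotype tumours alone the median was 1.32, with 17 genes higher at that p, and among anti-PD-1 tumours alone it was -0.18, with 0.

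Of 17 chemokine genes 9 were higher at an unadjusted p below 0.05, with a median log2 fold change of 0.80. Among isotype tumours alone 9 were higher at that p, and among anti-PD-1 tumours alone 1. Ccl4, made by activated T and NK cells and macrophages, was at 1.46 to 6.74 CPM against 0.379 to 1.98 CPM. Cxcl16, which macrophages and dendritic cells carry on their surface, was at 99.99 to 169 CPM against 63.0 to 115.5 CPM, a log2 fold change of 0.55 ± 0.15. Of 13 complement genes 6 were higher at that p, with a median of 0.59. C3, the central component, had medians of 159 and 47.9 CPM and a log2 fold change of 1.37 ± 0.41.

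**Figure D3:**
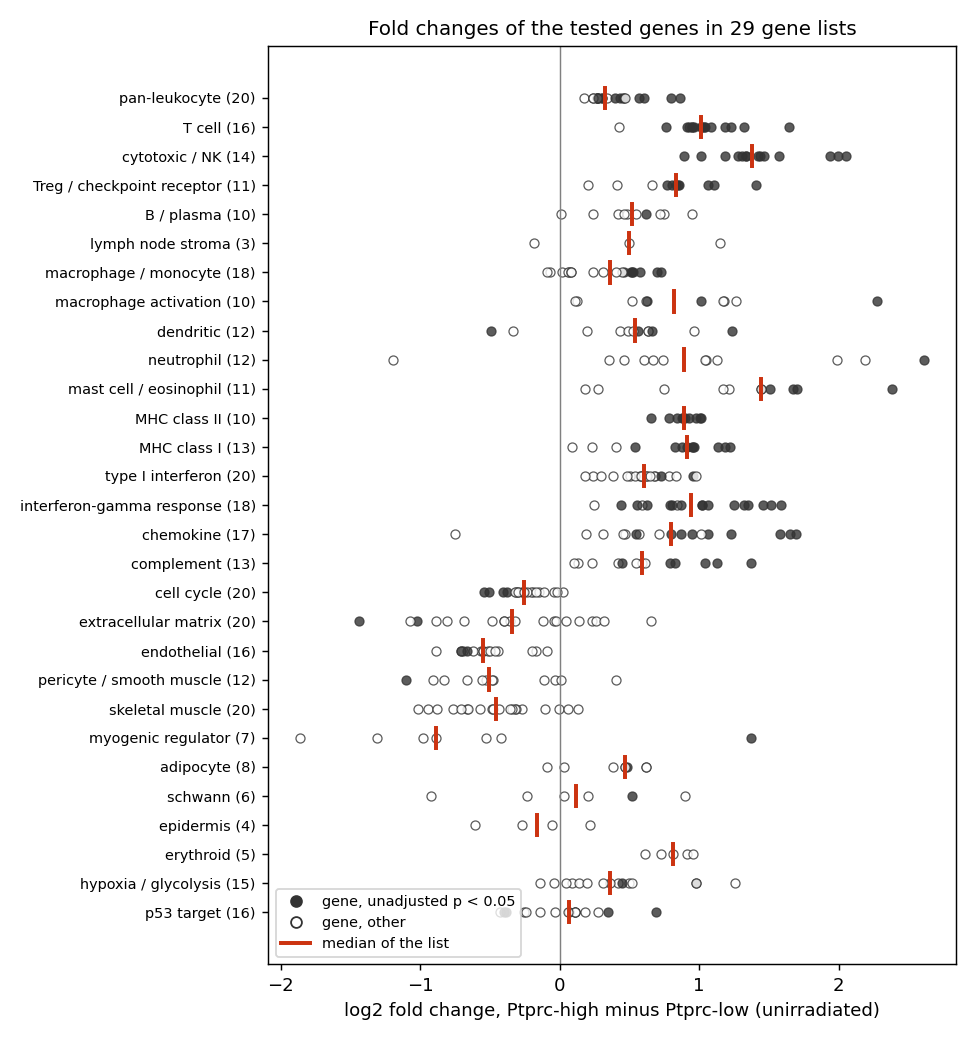
Log2 fold change between Ptprc-high and Ptprc-low unirradiated tumours of each tested gene (points) in 29 lists, with the number tested in brackets and the median as a red bar. Filled points have an unadjusted p below 0.05, and none had an adjusted p below 0.05. Medians ran from -0.89 (myogenic regulators) to 1.44 (mast cells).

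Lists of vessel, matrix and cell cycle genes had negative medians. Of all genes tested, 48.7% had a lower level in Ptprc-high tumours, and 6.62% were lower at an unadjusted p below 0.05. All 16 endothelial genes were lower, with a median log2 fold change of -0.55 and 2 at an unadjusted p below 0.05. That median was -0.84 among isotype and -0.16 among anti-PD-1 tumours alone, a difference that was not tested. Robo4, an endothelial guidance receptor, was at 9.24 to 26.6 CPM in high and 12.5 to 31.2 CPM in low tumours, a log2 fold change of -0.67 ± 0.24. Pecam1 (CD31), the general endothelial adhesion molecule, had medians of 74.7 and 102.9 CPM, a log2 fold change of -0.44 ± 0.22. Notch3, a receptor of pericytes, had medians of 20.3 and 33.7 CPM. Of 20 matrix genes 14 were lower, 2 at an unadjusted p below 0.05, with a median of -0.34 that was -0.16 without isotype replicate 4, -0.66 among isotype and -0.03 among anti-PD-1 tumours alone. Col5a1, a fibrillar collagen chain that starts fibril assembly, was at 384 to 900 CPM with a median of 666 in high tumours and at 404 to 2241 CPM with a median of 1430 in low tumours, a log2 fold change of -1.02 ± 0.29 (adjusted p = 0.167). Only anti-PD-1 replicate 6, at 404 CPM, kept the low class from lying above every high tumour. Col1a1, the main collagen chain, overlapped widely, at 1558 to 8033 CPM against 1728 to 11718 CPM.

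Of 20 cell cycle genes 19 were lower, 4 at an unadjusted p below 0.05, with a median log2 fold change of -0.26. Without anti-PD-1 replicate 6 that median was -0.06. Bub1b, a spindle checkpoint kinase, had medians of 67.4 and 101.3 CPM and a log2 fold change of -0.54 ± 0.16. Mki67, a marker of cycling cells, had medians of 140 and 186 CPM, a log2 fold change of -0.51 ± 0.24. Cdk1, the kinase that drives mitosis, had a log2 fold change of 0.02 ± 0.25, and among isotype tumours alone the list's median was 0.07. Skeletal muscle RNA varied widely within both classes. Its summed list was 90.0 to 8124 CPM in high and 244 to 9596 CPM in low tumours, and Acta1, skeletal actin, was at 11.97 to 1431 CPM against 62.9 to 1437 CPM. No muscle gene of 20 had an unadjusted p below 0.05. The part of muscle RNA in the results was not tested beyond a fit with the muscle list as a further covariate. There, 1837 genes had an unadjusted p below 0.05 in place of 2420, and the count of called genes was 0 in both fits. Vegfa, the vessel growth factor that hypoxia induces, had medians of 78.5 and 74.5 CPM.

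Other lists had at most 2 genes in each direction at an unadjusted p below 0.05, against background shares of 8.01% higher and 6.62% lower. Of 16 p53 target genes 2 were higher and 2 lower at an unadjusted p below 0.05, with a median of 0.06. Among them Eda2r, a death receptor, had medians of 25.1 and 12.3 CPM, and Aen, a nuclease of apoptosis, 30.3 and 39.4 CPM. Of 15 hypoxia and glycolysis genes 2 were higher, with a median of 0.36. Without isotype replicate 4 that median was 0.10 with 0 genes below that p, and among anti-PD-1 tumours alone it was -0.08. Of 12 pericyte and smooth muscle genes 1 was lower, with a median of -0.50 that was -0.80 without isotype replicate 6 and -0.21 without anti-PD-1 replicate 3. Of 12 myogenic regulators 7 were tested, with a median of -0.89, and the 1 gene at an unadjusted p below 0.05 was Chrna1, a chain of the muscle acetylcholine receptor, which was higher (medians of 110.7 and 53.3 CPM). The myogenic median was -1.16 among isotype and -0.22 among anti-PD-1 tumours alone, and its sign changed with the muscle list as a covariate. Adipocyte genes had a median of 0.47 with 1 of 8 higher, and 0.20 without anti-PD-1 replicate 1. Schwann cell genes had a median of 0.12 with 1 of 6 higher, and 0.01 to 0.40 with 1 tumour left out. Epidermal genes (4 tested of 10, median -0.16) and erythroid genes (5 tested of 7, median 0.81) had 0 below that p. The erythroid median was 0.02 without anti-PD-1 replicate 4 and 1.49 without anti-PD-1 replicate 6, where 4 genes were below that p. The epidermal median changed sign in 6 of 29 alternative settings, and with 1 tumour left out it was at most 0.04 (without isotype replicate 8). Hbb-bs, an adult globin chain from red cells, was at 13.4 to 476 CPM in high and 22.1 to 209 CPM in low tumours.

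Mest and Srf were 2 of the 9 lower genes whose classes did not overlap, and were named after their values were seen. Mest, an imprinted gene expressed from the paternal copy and mostly in embryonic mesoderm, was at 27.0 to 51.0 CPM in the 8 high tumours. In the low tumours it was at 59.0 to 513 CPM, with a median of 99.7, a log2 fold change of -2.11 ± 0.48 (adjusted p = 0.147). When tumours were ranked within antibody groups, which moved 2 tumours to the other class, it was -0.58. The highest were isotype replicates 3 and 8 and anti-PD-1 replicate 3, at 513, 360 and 230 CPM. Srf, a factor that switches on actin and immediate early genes, was at 54.8 to 82.9 CPM in high and 89.2 to 147 CPM in low tumours, a log2 fold change of -0.56 ± 0.13. The other lower ones were 5330416C01Rik, Cxxc1, Dot1l, Sh3gl1, Fam53c, Sec61a1 and Gm47766.

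**Figure D4:**
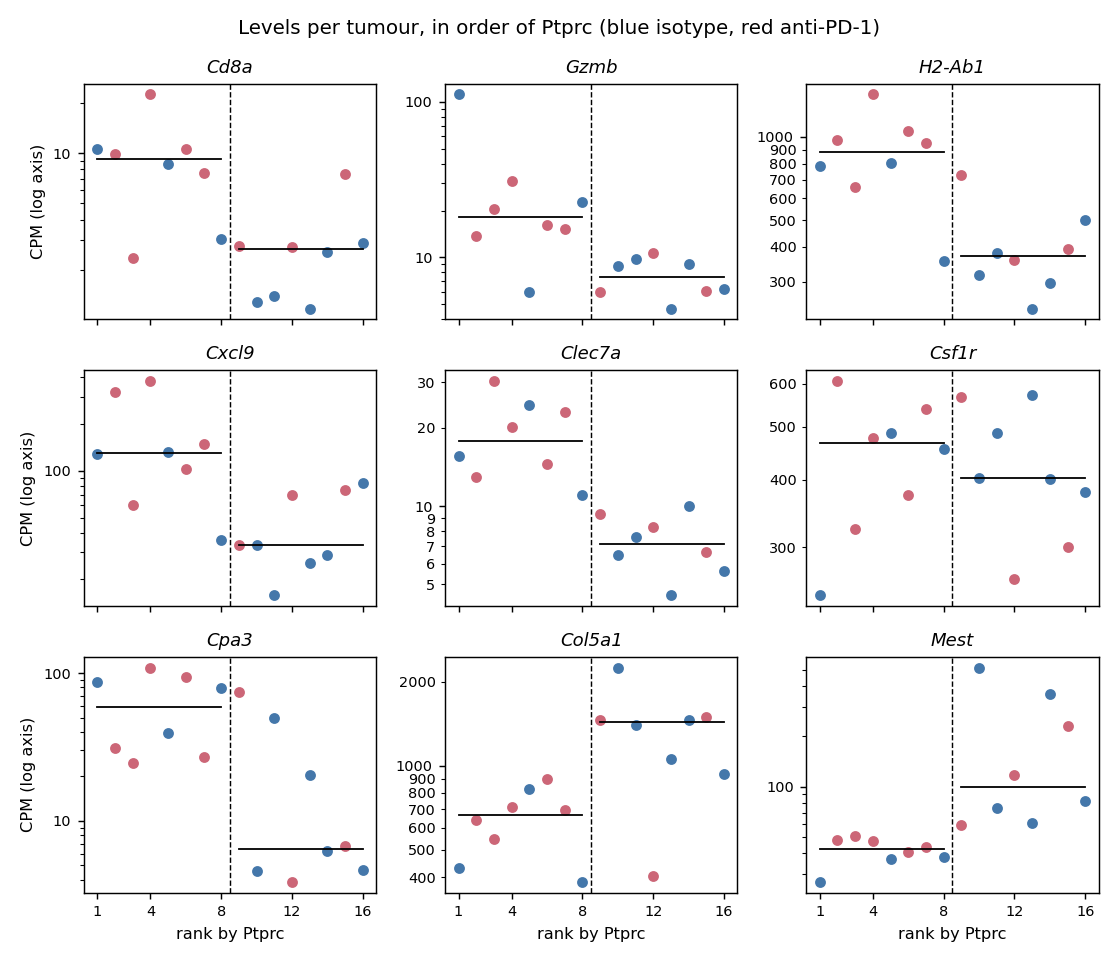
CPM on log axes of 9 genes in the 16 tumours by Ptprc rank (1 is highest), blue for isotype and red for anti-PD-1, with the median of each class as a line. Clec7a and Mest did not overlap between classes, while Csf1r had medians of 467 and 402 CPM and overlapped throughout.

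The contrast was not shown to depend on the antibody. Of 18006 genes tested for a different contrast under anti-PD-1 than under isotype, 0% were called in either direction, with 416 (2.31%) higher and 374 (2.08%) lower at an unadjusted p below 0.05. DESeq2 called 1 gene. The unadjusted counts were 1454 higher and 1040 lower without isotype replicate 6, and 214 and 236 without isotype replicate 5. The high isotype and low anti-PD-1 tumours numbered only 3 each. Within the isotype tumours alone and within the anti-PD-1 tumours alone, edgeR called 0 genes, at 1978 and 1148 genes of unadjusted p below 0.05. The T cell list's median was 1.05 in isotype and 0.998 in anti-PD-1 tumours, and the MHC class II list's median 0.87 and 0.97. MHC class I had medians of 1.21 and 0.57, and mast cell genes 1.93 and 0.94. Other lists had medians of opposite sign in isotype and anti-PD-1 tumours. These were type I interferon (1.32 and -0.18), skeletal muscle (0.25 and -1.12), adipocyte (1.07 and -0.28), hypoxia and glycolysis (0.62 and -0.08), cell cycle (0.07 and -0.47), p53 target (-0.05 and 0.04) and epidermal genes (0.01 and -0.22). The differences between these list medians were not tested.

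The same ranking and test in the 16 irradiated primary tumours, where Ptprc ran from 57.2 to 392 CPM, called 160 of 16694 genes higher (0.958%) and 0 lower (0%). At an unadjusted p below 0.05, 1633 (9.78%) were higher and 947 (5.67%) lower. With 1 tumour left out, the lower count ran from 615 (without anti-PD-1 replicate 4) to 1460 (without isotype replicate 1). Leaving out any one of 10 of the 16 tumours brought the called genes to 0, while the count was above 0 without any one of the other 6, up to 478 without isotype replicate 4. Those 10 were isotype replicates 2, 5, 6 and 8 and anti-PD-1 replicates 1, 3, 4, 5, 6 and 7. Of the 154 called genes tested in both sets, 90.3% were higher in unirradiated Ptprc-high tumours too, compared with 51.1% of all 16210 genes tested in both. Their median unirradiated log2 fold change was 0.50, and 80 of the 154 (51.9%) were higher at an unadjusted p below 0.05 there, compared with 7.99% of all genes tested in both. The irradiated calls were made in tumours that the unirradiated ranking did not use, although both rankings used Ptprc. Of the genes tested in both sets, 2385 had an unadjusted p below 0.05 in unirradiated and 2499 in irradiated tumours, and 662 had it in both. The 662 were 26.5% of the 2499, and the 2385 were 14.7% of all genes tested in both. The same sign was found for 600 of the 662, and these 600 were 25.2% of the 2385 and 24.0% of the 2499. Of the 600, 475 were higher in the high class.

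The 3 called genes with the smallest p in irradiated tumours were not alike in the unirradiated ones. Gpr141, a receptor of myeloid cells, had a log2 fold change of 1.98 ± 0.31 in irradiated and 0.94 ± 0.34 in unirradiated tumours. Adgrg5, an adhesion receptor of leukocytes, had 1.99 ± 0.32 and 0.81 ± 0.30. Wdfy4, which dendritic cells need for cross-presentation, had 1.09 ± 0.17 in irradiated (adjusted p = 0.0390) and 0.10 ± 0.22 in unirradiated tumours (adjusted p = 0.859).

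By list, T cell genes had a median log2 fold change of 2.32 in irradiated tumours against 1.02 in unirradiated ones, and MHC class II genes 2.24 against 0.89, with a wider Ptprc range behind the former values. The cytotoxic list had medians of 1.42 and 1.38, and the interferon-gamma list 0.87 and 0.94. Set against each doubling of Ptprc, which ran over 6.84-fold in irradiated and 2.08-fold in unirradiated tumours, the T cell median was 1.68 in irradiated and 1.28 in unirradiated tumours. On that scale the MHC class II median was 1.64 and 1.28, the cytotoxic median 1.27 and 1.86, and the interferon-gamma median 0.69 and 1.33. Differences between doses in these list medians were not tested. Mast cell genes had medians of 0.16 in irradiated and 1.44 in unirradiated tumours, and type I interferon genes -0.40 and 0.60. Endothelial genes had a median of 0.63 in irradiated tumours, with 16 of 16 genes above 0 and 8 higher at an unadjusted p below 0.05. In unirradiated tumours their median was -0.55, with 2 lower at that p. In both sets 0 endothelial genes were called. The skeletal muscle list had medians of 1.79 and -0.46, the latter being -2.31 without isotype replicate 6, -0.03 without anti-PD-1 replicate 3 and 0.25 among isotype tumours alone, and its part in the vessel values was not tested. Tested directly in a comparison added after seeing the data, the difference of the contrast between doses was called for 0% of 17769 genes in either direction, with a smallest adjusted p of 0.210. At an unadjusted p below 0.05, 1010 genes (5.68%) had a larger and 842 (4.74%) a smaller value in irradiated tumours. Pecam1 had an irradiated minus unirradiated difference of 1.31 (unadjusted p = 0.00166, adjusted p = 0.281) and Foxp3 one of 1.91 (adjusted p = 0.304). Over the endothelial list this difference ran from 0.39 (Cldn5, unadjusted p = 0.501) to 2.02 (Vwf, unadjusted p = 0.0517). Its smallest unadjusted p was 0.000357 (Kdr, adjusted p = 0.210).

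**Figure D5:**
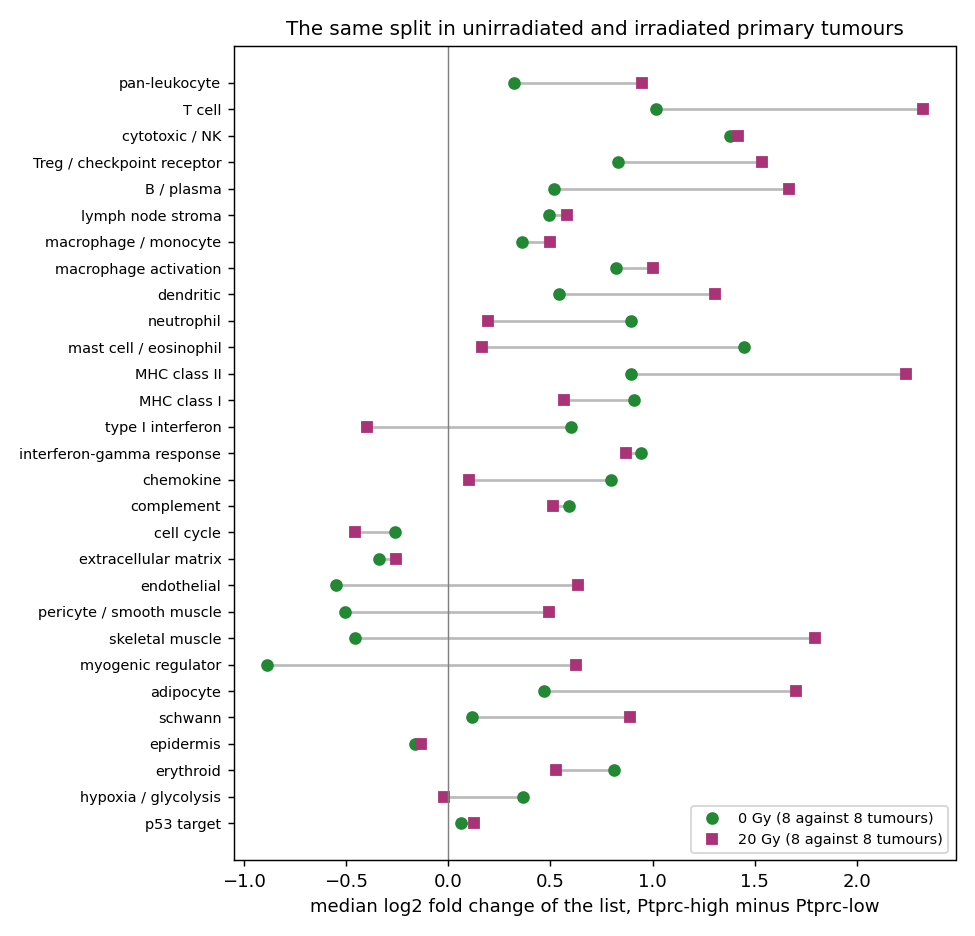
Median log2 fold change between Ptprc-high and Ptprc-low tumours of 29 gene lists in unirradiated (green circles) and irradiated (purple squares) primary tumours. T cell medians were 1.02 and 2.32, mast cell medians 1.44 and 0.16, and endothelial medians -0.55 and 0.63.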

How the data were processed

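Per the labels' protocols, bulk tumour RNA with an integrity number above a set limit was poly(A)-selected and made into stranded libraries. The submitters' processing notes name Trimmomatic 0.36, STAR and HTSeq and the build mm10. Whether counting used strand is not given in the sources used here, so counts of antisense or overlapping genes and of near copies are uncertain. The authors deposited raw counts of 36854 genes for 48 samples, and 0 columns were of unlisted samples. Symbols came from GENCODE M21.

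CPM were scaled by TMM over the 16 tumours. The 8 highest by Ptprc were compared with the 8 lowest by edgeR 4.0.16 (R 4.3.3), using filterByExpr by class, glmQLFTest with antibody as covariate, and Benjamini-Hochberg adjustment over all genes tested except Ptprc. A gene was called at an adjusted p below 0.05. The SE is the log2 fold change over the root of F. DESeq2 1.42.0 was an alternative. The edgeR fit was also run on simulated counts with the same spread for all genes and no outlying tumours. That run therefore does not gauge how the fit performs on these tumours. Pairs of libraries within a group differed by more than counting error (over 56 pairs the lowest chi-square was 85.6 per degree of freedom).

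The tumours, classes, 29 gene lists and panel were chosen with earlier results of these data known. Named genes are the panel, up to 3 members of a list with the smallest p and 2 with the largest, up to 3 called genes per direction in the irradiated and interaction tests, and others marked as seen first. A gene of the panel is not reported here. With totals of 37.7 to 53.3 M counts, counting error is small beside the spread between tumours except below about 1 CPM. Replicate numbers follow accession order and pair nothing.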

Additional observations from a re-analysis of the deposited data

Results flagged for a closer look

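Single tumours stood apart from the other 7 of their class in 11 of 50 sets of 8 values (25 quantities in both classes), where chance gives about 1 in 20 for normally distributed values. The CPM were not transformed and all 11 lay at the high end, so that rate may not hold for them. In the Ptprc-high class, Gzmb was 111.99 CPM in isotype replicate 4 with the next at 31.2, and Irf7 was 716 CPM in the same tumour with the next at 296. Anti-PD-1 replicate 4 had S100a8 at 92.0 CPM with the next at 14.6 and Vegfa at 236 CPM with the next at 110. Cd8a was 22.6 CPM in anti-PD-1 replicate 1 with the next at 10.6, and Trp53 was 48.6 CPM in anti-PD-1 replicate 7 with the next at 31.2. In the Ptprc-low class, anti-PD-1 replicate 3 had Cd8a at 7.55 CPM with the next at 2.88 and Cd274 at 11.8 CPM with the next at 6.34. Cd79a was 2.45 CPM in anti-PD-1 replicate 6 with the next at 0.959, Trp53 was 38.3 CPM in anti-PD-1 replicate 2 with the next at 27.2, and Vegfa was 196 CPM in isotype replicate 7 with the next at 107.5.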

How the results depend on the processing

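For the unirradiated contrast edgeR called 0 genes, and it also called 0 with DESeq2's size factors, no expression filter, no antibody covariate, Ptprc as a continuous value, ranking within antibody groups or without TMM, either antibody alone, and the muscle or cell cycle covariate. The count was 1 without the middle 4 tumours (H2-DMb1), 1 with Xist as covariate (Lilra5), 6 when tumours were ranked by the pan-leukocyte list (14 of 16 in the same class), 422 by DESeq2, and 0 to 3 with 1 tumour left out, the 3 being Lair1, Fcgr4 and Ctss without anti-PD-1 replicate 7 and 1 being Lrrn3 without anti-PD-1 replicate 2. The cause was not tested. The antibody interaction had 0 calls, 1 by DESeq2, and 0 with any 1 tumour left out. The irradiated contrast had 160 calls, 864 by DESeq2, 52 without the filter, 510 without the middle 4 tumours, 1949 with continuous Ptprc and 0 to 478 with 1 tumour left out. The high class held 5 anti-PD-1 tumours when ranked by Ptprc with or without TMM and by the pan-leukocyte list. With Ptprc kept in the adjustment, added after seeing the data, calls were 0 and 162. Of 82 genes followed over 29 alternatives, 72 kept their sign in all, and the 10 that did not had main log2 fold changes between 0.02 and 0.49. Of the 82, 35 were called under some alternative. By list, DESeq2 called 9 MHC class I, 9 cytotoxic and NK and 8 T cell genes higher, and 0 type I interferon and 0 macrophage activation genes. No paired analysis was possible because replicate numbers only follow accession order and the classes share no pairing label.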
